A study of Homo sapiens with 4 samples.

Results

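The miR-23/27/24 clusters are 2 groups of microRNA (miRNA) genes, each made of a miR-23, a miR-27 and a miR-24 precursor in that order, and 10 mature strands of these precursors were followed here in cortical interneurons derived from human embryonic stem cells (hESCs). The strands were picked by name, and all 10 were found among the 2656 mature human miRNAs of the deposited table. Small RNA was sequenced from H1 hESC-derived cortical interneurons, inhibitory nerve cells matured in culture, in 4 libraries: 2 from cultures kept for 7 days in medium with ethanol at about 50 to 100 mM, and 2 from cultures kept for the same 7 days without ethanol. H1 is the only line used, so the groups share its genotype, and its cells had been taken to interneurons by neural induction with inhibitors, ventral patterning with SHH and purmorphamine, and maturation. Per the methods, collection followed 1 more day in medium that held no ethanol. The comparison asks whether ethanol exposure changed the levels of these miRNAs.

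A miRNA precursor is a hairpin from which a short strand is cut on each arm, called 5p and 3p. Usually one of them, the guide strand, is loaded into Argonaute and represses mRNAs whose sites pair with its seed, bases 2 to 8, while the other, the passenger strand, is mostly degraded. In the miR-23/27/24 precursors the 3p strand is the guide. The clusters are known for roles in blood vessels, heart, fat and immune cells: miR-23a and miR-23b repress glutaminase, miR-27 represses the adipogenic regulator PPARG, and miR-24 restrains the cell cycle through factors such as MYC and E2F2. Because the miRNAs of a cluster are cut from a common primary transcript, their mature levels differ when processing or turnover of the strands differs.

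The sequences below, from RefSeq (GRCh38.p14), show why the strands fall into 3 families and why the copies of a family are hard to tell apart. The guide strands are written 5′ to 3′, with the seed in capitals.
hsa-miR-23a-3p: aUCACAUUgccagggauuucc
hsa-miR-23b-3p: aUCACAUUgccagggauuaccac
hsa-miR-27a-3p: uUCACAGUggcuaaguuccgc
hsa-miR-27b-3p: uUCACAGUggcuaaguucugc
hsa-miR-24-3p: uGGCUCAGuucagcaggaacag
Counted from the 5′ end, the a and b copies of miR-23 differ by U19A over the 21 bases they share in length, with 2 further bases in miR-23b-3p. The a and b copies of miR-27 differ by C19U. Both differences lie outside the seed and near the 3′ end, so reads that end before base 19 fit either copy. The seeds of miR-23 and miR-27 differ from each other at 1 base, U7G, and miR-24 has a seed of its own, which no other mature miRNA in the RefSeq table holds.

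The passenger strands are shown because they carry the information on the copy of origin that the guide strand of miR-24 lacks. Capitals again mark the seed.
hsa-miR-23b-5p: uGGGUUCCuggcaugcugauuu
hsa-miR-27a-5p: aGGGCUUAgcugcuugugagca
hsa-miR-27b-5p: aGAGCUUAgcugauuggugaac
hsa-miR-24-1-5p: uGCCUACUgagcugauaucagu
hsa-miR-24-2-5p: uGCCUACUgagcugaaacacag
The 5p strands of MIR24-1 and MIR24-2 share their seed and differ at 6 of 22 bases, and those of MIR27A and MIR27B differ at 8 of 22 bases, including G3A within the seed. The hairpins of the miR-24 copies show that the same guide strand comes from both loci. Capitals mark the 5p strand and then the 3p strand.
MIR24-1: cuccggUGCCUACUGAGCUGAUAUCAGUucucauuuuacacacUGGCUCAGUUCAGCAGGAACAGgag
MIR24-2: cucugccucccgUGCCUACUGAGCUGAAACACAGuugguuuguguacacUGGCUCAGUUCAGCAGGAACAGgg
miR-24-3p occupies bases 44 to 65 of the 68-base MIR24-1 hairpin and bases 50 to 71 of the 73-base MIR24-2 hairpin, so its counts cannot be assigned to either locus. How a read that matches both loci was counted is not given in the sources used here.

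MIR23B, MIR27B and MIR24-1 lie on the plus strand of chromosome 9 (GRCh38, 95085208 to 95086088), a span of 881 bases within the protein-coding gene C9orf3. In GENCODE 29 MIR23B and MIR27B are intronic to C9orf3, and MIR24-1 overlaps an exon of one of its transcripts. MIR23A, MIR27A and MIR24-2 lie on the minus strand of chromosome 19 (GRCh38, 13836287 to 13836659), within 373 bases and inside an exon of the noncoding gene AC020916.1. The map of both clusters shows the same order of hairpins and the wider spacing on chromosome 9. The submitters' processing notes name hg19, and the counts carry no coordinates, so these positions describe the genes and were not used for counting.

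**Figure D1:**
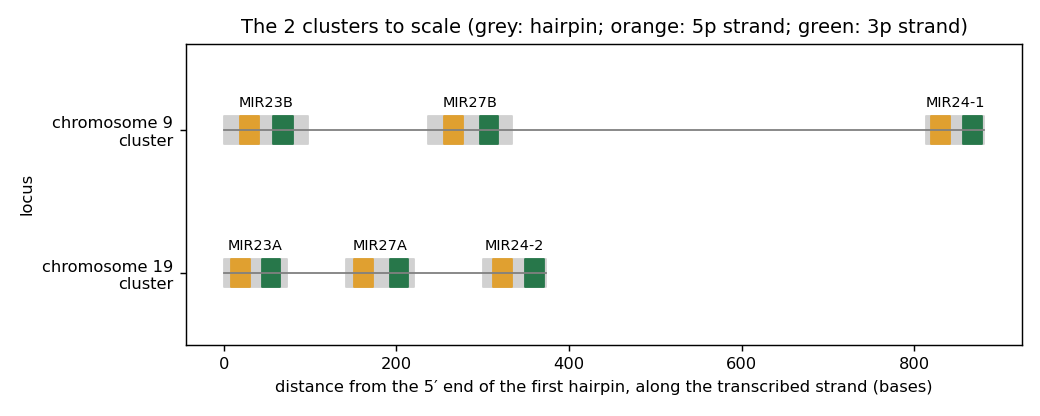
The clusters are drawn to scale along the transcribed strand, in bases from the 5′ end of the first hairpin, with hairpins in grey, 5p strands in orange and 3p strands in green. The chromosome 9 cluster spans 881 bases and the chromosome 19 cluster 373 bases.

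Library depth was between 12100425 and 24858230 counts on mature miRNAs, and each exposed library was deeper than each unexposed library, so depth and exposure cannot be told apart. The cultures were looked at for 9 neuronal miRNAs, among them miR-124-3p, miR-9-5p and miR-7-5p. All 9 were counted in every library, and together they took between 35.1% and 41.4% of the counts. Levels are given as counts per 1000000 counts (CPM) after scaling by TMM, a method that evens out libraries on the bulk of their miRNAs. The neuronal sum of 309584 to 489230 CPM was spread unevenly over its list. In it miR-124-3p had 2190 to 5406 CPM, miR-137-3p 58.3 to 84.8 CPM and miR-138-5p 39.2 to 61.9 CPM. The pooled share therefore says little about these 3 markers. The mature strands are 21 to 23 bases long, so CPM was compared between miRNAs without a correction for length, although ligation in small RNA libraries favours some sequences over others. In bulk RNA, fewer cells of a type and less RNA per cell cannot be told apart.

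The chromosome 9 copies of miR-23 and miR-27 had the higher counts, and within each hairpin whose arms were both measured the guide strand exceeded its own passenger strand by more than an order of magnitude. The 10 strands together took 1.20% and 0.911% of the counts of the exposed libraries and 0.796% and 1.26% of those of the unexposed libraries. hsa-miR-27b-3p led in every library and ranked 23 by mean CPM among all miRNAs of the table, followed by miR-24-3p at rank 53 and miR-23b-3p at rank 82. miR-27a-3p and miR-23a-3p followed at ranks 115 and 141. The ranges of miR-27b-3p, miR-24-3p, miR-23b-3p and miR-27a-3p over the 4 libraries did not overlap, whereas those of miR-27a-3p (201 to 365 CPM) and miR-23a-3p (172 to 215 CPM) did.

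**Figure D2:**
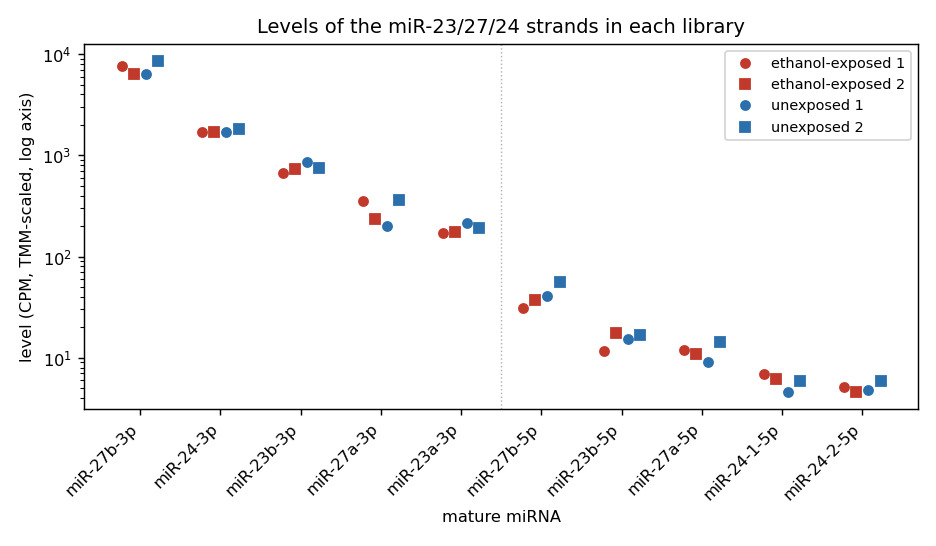
TMM-scaled CPM on a log axis is plotted for the 10 strands, with guide strands left and passenger strands right of the dotted line, exposed libraries in red, unexposed in blue, and circles and squares for replicates 1 and 2. miR-27b-3p sits between 6361 and 8624 CPM and miR-24-2-5p between 4.64 and 5.91 CPM. The highest library exceeds the lowest most for miR-27a-3p, at 1.82-fold, and for miR-27b-5p, at 1.81-fold, against a median of 1.61-fold over all tested miRNAs.

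Ethanol exposure was not accompanied by a detectable change in any of the 10 strands. All 10 passed the filter on low counts, and edgeR's quasi-likelihood test across 863 miRNAs gave 0 of them an unadjusted P under 0.05, against 4.52% of all miRNAs tested. limma-voom and DESeq2 also gave 0. After Benjamini-Hochberg adjustment 0 members and 0% of all tested miRNAs were called in edgeR. The log2 fold change was above 0 for 2 of the 10 strands, against 48.8% of all tested miRNAs, and its median was -0.11 against -0.010 over all of them. When libraries were scaled by their size alone, the median of all tested miRNAs rose by 0.15 and 6 of the 10 strands were above 0. The 95% interval of the fold change lay within 2-fold in either direction for 8 of the 10, all but miR-27b-5p and miR-24-1-5p, and a change of a size inside these intervals could not be seen with 2 libraries per group. The titles number the libraries as replicates and the methods state that treatment was done in duplicate, without saying whether the differentiations were separate, so the P values measure only the spread between these libraries, which may be technical.

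The libraries of the groups did not overlap for 5 of the 10 strands after TMM scaling, against 33.4% of all tested miRNAs. Of these, 4 were lower in exposed cells, against 14.6% of all tested miRNAs, and 1 was higher, against 18.8%. The lower ones were miR-23a-3p, miR-23b-3p, miR-24-3p and miR-27b-5p, and the higher one was miR-24-1-5p. With library size only, 0 of the 10 were separated, against 30.8% of all tested miRNAs. The separation of these strands therefore depended on the scaling factors, at 1.13 and 0.979 for exposed and 0.846 and 1.06 for unexposed cells.

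miR-23a-3p and miR-23b-3p, the glutaminase-repressing guides, had somewhat lower levels in exposed cells after TMM scaling, within the error of the fit. hsa-miR-23b-3p was at 673 and 728 CPM in exposed replicates 1 and 2 and at 850 and 748 CPM in the unexposed replicates. hsa-miR-23a-3p was at 172 and 174 CPM in exposed and 215 and 193 CPM in unexposed cells. For each of them both exposed libraries lay below both unexposed libraries in these scaled levels, and unexposed replicate 1 was the highest. With library size only the groups overlapped for each, and unexposed replicate 2 was the highest. The log2 fold change was -0.19 (standard error 0.21) for miR-23b-3p and -0.24 (standard error 0.21) for miR-23a-3p, with unadjusted P values of 0.389 and 0.299 in edgeR. When the a and b counts were summed, so that a read given to the wrong copy could not matter, the fold change of miR-23 was 0.870 (95% interval 0.623 to 1.22, adjusted p = 0.936 in edgeR).

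The miR-27 guides varied more between replicates than between groups. hsa-miR-27b-3p was at 7654 and 6401 CPM in exposed and 6361 and 8624 CPM in unexposed cells. hsa-miR-27a-3p was at 352 and 236 CPM in exposed and 201 and 365 CPM in unexposed cells. In both, exposed replicate 1 and unexposed replicate 2 were the high libraries, and the groups overlapped. The fold change was 0.938 (95% interval 0.623 to 1.41) for miR-27b-3p and 1.04 (95% interval 0.610 to 1.77) for miR-27a-3p, with unadjusted P values of 0.727 and 0.872 in edgeR. The direction for miR-27b-3p turned to higher with library size only, and that for miR-27a-3p turned to lower with upper quartile scaling. The sum of the a and b copies had a fold change of 0.941 (95% interval 0.623 to 1.42, adjusted p = 0.983 in edgeR).

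miR-24-3p, which restrains cell cycle genes in dividing cells, was the steadiest of the 10 strands after scaling. It stood at 1702 and 1692 CPM in exposed and at 1709 and 1799 CPM in unexposed cells. Its highest library exceeded its lowest 1.06-fold, the fifth smallest spread among the 863 tested miRNAs, whose median was 1.61-fold. Before TMM scaling the spread of miR-24-3p was 1.34-fold, which ranked 127, while miR-23b-3p then had a spread of 1.12-fold and ranked 10. The fold change of miR-24-3p on exposure was 0.967 (95% interval 0.696 to 1.34), and edgeR gave an unadjusted P of 0.822. Its direction turned to higher with library size only.

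Among the passenger strands, miR-27b-5p had the largest log2 fold change in edgeR with TMM and all 4 libraries, at -0.51, whereas with library size only that of miR-24-1-5p was larger, at 0.45 against -0.39. Without unexposed replicate 2 it was larger too, at 0.47 against -0.29. The levels of miR-27b-5p were 30.9 and 37.0 CPM in exposed and 40.6 and 55.7 CPM in unexposed cells, with unexposed replicate 2 the highest. Its log2 fold change was -0.51 (standard error 0.27), with an unadjusted P of 0.101 and an adjusted p of 0.922 in edgeR. An exact permutation test gave 0.333, the smallest p that 2 cultures against 2 allow. The fit depended on the unexposed libraries: leaving out unexposed replicate 1 gave a log2 fold change of -0.72 (unadjusted P = 0.0154, adjusted p = 0.268 in edgeR), and leaving out unexposed replicate 2 gave -0.29 (unadjusted P = 0.336 in edgeR). Without unexposed replicate 1, 99 of 977 miRNAs tested (10.1%) had an unadjusted P under 0.05, so 1 of 10 members was near the background. Over all alternatives its adjusted p lay between 0.268 and 1.00.

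The passenger strands of miR-24 are the only ones that tell its loci apart, and they were rare. miR-24-1-5p had 175 and 149 counts in exposed and 54 and 76 counts in unexposed cells, or 6.94, 6.12, 4.58 and 5.91 CPM after scaling. miR-24-2-5p had 131 and 113 counts in exposed and 57 and 76 counts in unexposed cells, or 5.20, 4.64, 4.83 and 5.91 CPM. For miR-24-1-5p both exposed libraries lay above both unexposed libraries, and for miR-24-2-5p the groups overlapped. The log2 fold changes were 0.32 (standard error 0.30) and -0.13 (standard error 0.30), with unadjusted P values of 0.329 and 0.681 in edgeR, and the sign for miR-24-2-5p turned with library size only. These counts were low: the 54 counts of miR-24-1-5p in unexposed replicate 1 are 3.87 CPM before scaling, with a 95% Wilson interval of 2.97 to 5.05 CPM, which covers counting error only.

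miR-23b-5p and miR-27a-5p were at a similar level, and their ranges overlapped. miR-23b-5p stood at 11.6 and 17.4 CPM in exposed and 15.4 and 16.7 CPM in unexposed cells, with exposed replicate 1 apart from the other libraries. miR-27a-5p stood at 12 and 11.0 CPM in exposed and 9.07 and 14.2 CPM in unexposed cells, so that the exposed libraries lay between the unexposed ones. The log2 fold changes were -0.15 (standard error 0.30) and -0.023 (standard error 0.31), with unadjusted P values of 0.634 and 0.943 in edgeR, and the sign for miR-27a-5p turned with library size only.

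**Figure D3:**
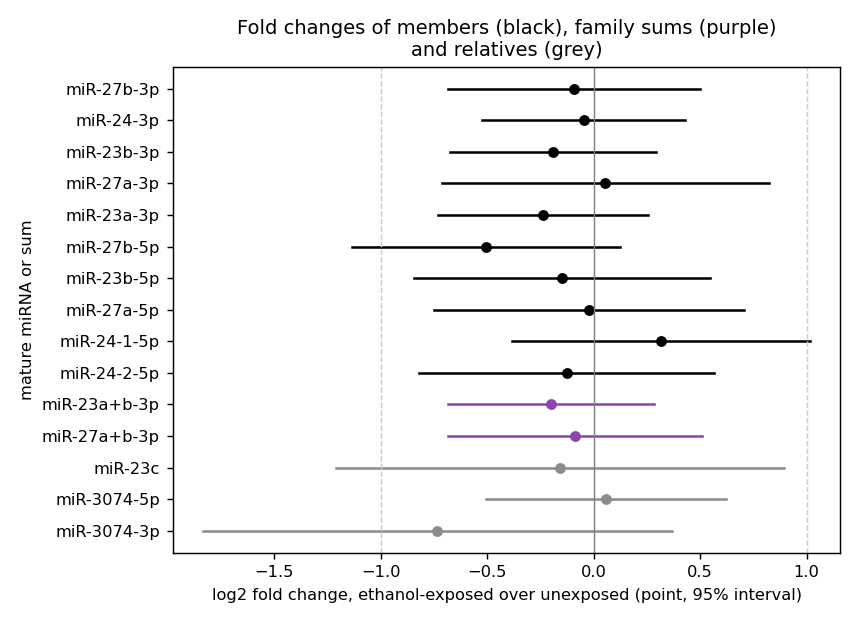
Log2 fold changes of exposed over unexposed cells are shown as points with 95% intervals from edgeR, for the 10 strands in black, the sums of the a and b copies in purple and 3 related miRNAs in grey, with dashed lines at 2-fold. Every interval includes 0, and among the 10 strands miR-27b-5p lies farthest from it, at -0.51.

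Counts were assigned unequally to the copies of the clusters, in shares that differed between strands. Of the miR-23 guide counts, 79.7% and 80.7% were assigned to the chromosome 9 copy in exposed and 79.8% and 79.5% in unexposed cells. Of the miR-27 guide counts, 95.6% and 96.4% were so assigned in exposed and 96.9% and 95.9% in unexposed cells. How guide reads that fit either copy were counted is not given in the sources used here, so these shares may include misassigned reads. The miR-23 share was thus nearly constant over the 4 libraries, and the miR-27 share was higher in each of them.

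The passenger strands gave other shares. The chromosome 9 copy held 72.0% and 77.1% of the miR-27 passenger counts in exposed and 81.7% and 79.7% in unexposed cells, below its share of the guide strand in every library. For miR-24, whose guide cannot be assigned, MIR24-1 held 57.2% and 56.9% of the passenger counts in exposed and 48.6% and 50.0% in unexposed cells. The groups did not overlap for the miR-27 or the miR-24 passenger strands, while 33.4% of all tested miRNAs did not overlap in TMM-scaled level. For miR-23 the share was between 96.4% and 98.3% in the 4 libraries, with overlapping groups. The 95% Wilson interval of the miR-27 passenger share in exposed replicate 2 (74.6 to 79.5%) overlapped those of both unexposed replicates (78.4 to 84.7% and 76.9 to 82.2%). In exposed replicate 1 the interval (69.3 to 74.6%) lay below both of them. The intervals of the miR-24 shares overlapped between the groups, with 51.6 to 62.6% and 50.8 to 62.7% in exposed against 39.6 to 57.8% and 42.1 to 57.9% in unexposed cells. The ratio of miR-24-2-5p to miR-24-1-5p was 0.749 and 0.758 in exposed and 1.06 and 1.00 in unexposed cells, a log2 difference of -0.45, and an exact permutation test gave 0.333, or 1 after adjustment over the 9 ratios tested.

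**Figure D4:**
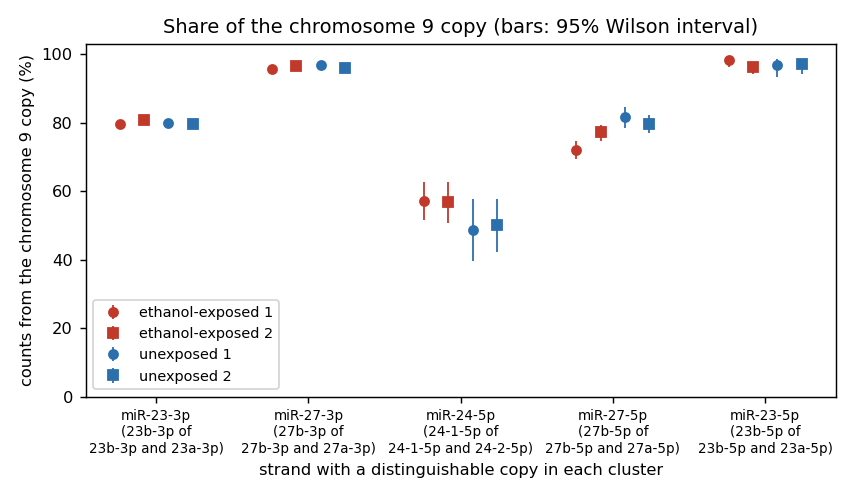
The share of counts assigned to the chromosome 9 copy, in percent with 95% Wilson intervals, is plotted for the 5 strands that differ between the clusters, with exposed libraries in red and unexposed in blue. The shares are near 80% for the miR-23 guide, above 95% for the miR-27 guide and between 48.6% and 57.2% for the miR-24 passenger strand.

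The balance of the arms was compared within each library, which makes it independent of depth and scaling. miR-27b had 248 and 173 guide counts per passenger count in exposed and 157 and 155 in unexposed cells. Both exposed libraries were above both unexposed ones, which were nearly equal, while the exposed libraries lay far apart. The log2 difference was 0.41 (SD 0.37 in exposed and 0.012 in unexposed cells, n = 2 each; exact permutation p = 0.333), and without exposed replicate 1 it was 0.15. For the other hairpins the groups overlapped: miR-23b had 57.9 and 41.9 guide counts per passenger count in exposed and 55.1 and 44.8 in unexposed cells, and miR-27a had 29.4 and 21.5 in exposed and 22.1 and 25.7 in unexposed cells. Among these 3 hairpins the arms of MIR27B were the most unequal in every library and those of MIR27A the least. MIR23A, whose 5p strand had at most 16 counts, had a ratio of 265 to 866.

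Cluster mates had unequal mature read counts, and their ratio varied between libraries in a similar order at both loci. miR-27b-3p had 11.4 and 8.80 times the counts of miR-23b-3p in exposed and 7.48 and 11.5 times in unexposed cells. miR-27a-3p had 2.05 and 1.36 times the counts of miR-23a-3p in exposed and 0.935 and 1.90 times in unexposed cells. At each locus exposed replicate 1 and unexposed replicate 2 were high, exposed replicate 2 was lower and unexposed replicate 1 was lowest, so the groups overlapped. The TMM factors were also higher in exposed replicate 1 and unexposed replicate 2, at 1.13 and 1.06, than in exposed replicate 2 and unexposed replicate 1, at 0.979 and 0.846. The 9 neuronal miRNAs took 35.1% and 38.8% of the counts in exposed and 41.4% and 39.5% in unexposed cells, lowest in exposed replicate 1 and highest in unexposed replicate 1. Their part in the ratio was not tested.

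**Figure D5:**
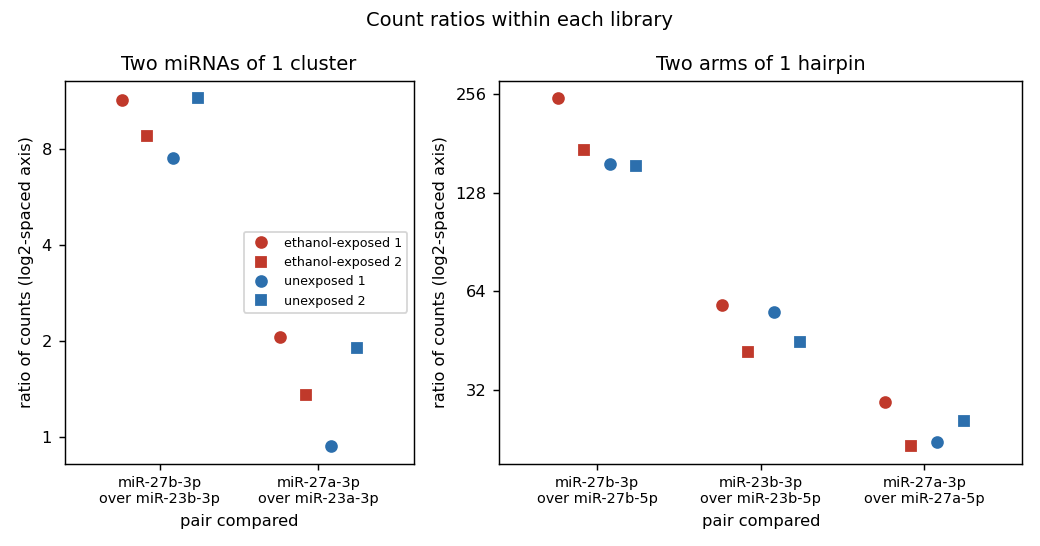
Count ratios within each library are shown on a log2-spaced axis, for miR-27 over miR-23 of the same cluster on the left and for guide over passenger strand of the same hairpin on the right, with exposed libraries in red and unexposed in blue. The miR-27b arm ratio is 155 to 157 in the unexposed and 173 to 248 in the exposed libraries, while the other ratios overlap between groups.

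For 2 of the 9 ratios tested between the groups, the arms of miR-27b and the passenger strands of miR-24, the groups did not overlap. In TMM-scaled level, 33.4% of all tested miRNAs did not overlap, a share that 2 of 9 does not exceed. Outside the 9, the groups also did not overlap for the chromosome 9 share of the miR-27 passenger strands, given above. They did not overlap either for the ratio of miR-24-1-5p to miR-3074-3p, at 6.25 and 8.76 in exposed and 2.16 and 6.33 in unexposed cells. For the other pairs outside the 9 the groups overlapped, and no pair outside the 9 was tested. The ratio of miR-23a-3p to miR-23b-3p was the steadiest guide ratio, from 0.239 to 0.258 over the 4 libraries, with a log2 difference of -0.046 between exposed and unexposed cells (exact permutation p = 0.667). miR-27a-3p to miR-27b-3p ranged from 0.0315 to 0.0460, with a log2 difference of 0.17 (exact permutation p = 0.667). The ratio of miR-24-3p to the sum of the miR-23 and miR-27 guides ranged from 0.181 to 0.224, with a log2 difference of 0.044 (exact permutation p = 0.667). After adjustment over the 9 ratios each p was 1, and with 2 cultures against 2 none could have passed 0.05.

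Close relatives outside the 10 strands were rare, with 1 exception. miR-23a-5p, the passenger of MIR23A, had 5 and 16 counts in exposed and 6 and 6 in unexposed cells and did not pass the filter. miR-23c, which shares the miR-23 seed and differs from miR-23b-3p by G14U and A22C, had 16 and 11 counts in exposed and 7 and 8 in unexposed cells. miR-9985, which shares the miR-27 seed and was added after its counts were seen, had 19 to 70 counts per library. The seed families of miR-23 and miR-27 therefore rested almost wholly on the a and b copies.

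The exception was miR-3074-5p. MIR3074 is annotated on the strand opposite MIR24-1, and over 20 bases miR-3074-5p is the reverse complement of miR-24-3p. It stood at 47.7 and 40.5 CPM in exposed and 41.5 and 43.3 CPM in unexposed cells, with overlapping groups. Its fold change was 1.04 (95% interval 0.703 to 1.54, unadjusted P = 0.825 in edgeR). miR-24-3p had 35.7 and 41.8 times its counts in exposed and 41.1 and 41.6 times in unexposed cells, with exposed replicate 1 below the other libraries. The kit joins adapters to the RNA itself, which keeps the strand, but whether the authors' counting used it is not given in the sources used here. miR-3074-3p, with 28 and 17 counts in exposed and 25 and 12 in unexposed cells, showed -0.73 on the log2 scale (standard error 0.48, unadjusted P = 0.162 in edgeR), with overlapping counts. Leaving out unexposed replicate 2 gave -1.26 (unadjusted P = 0.0105 in edgeR), in a fit where 109 of 954 miRNAs (11.4%) had an unadjusted P under 0.05, and leaving out unexposed replicate 1 gave -0.045 (unadjusted P = 0.940 in edgeR). Of the 3 relatives tested, 0 passed an unadjusted P of 0.05 in edgeR with all 4 libraries.

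The miRNAs whose pattern over the 4 libraries was most like the mean of the 5 guide strands were miR-106b-3p, miR-584-5p, miR-181b-2-3p, miR-30e-3p and miR-148a-3p. Likeness was the root-mean-square difference of centred log2 CPM among 368 miRNAs with a mean of at least 10 CPM, and it was 0.029 for miR-106b-3p and 0.057 for miR-148a-3p, against a median of 0.25. The guides themselves lay between 0.070 (miR-24-3p) and 0.29 (miR-27a-3p) from their own mean. miR-106b-3p was at 1662 and 1506 CPM in exposed and 1544 and 1727 CPM in unexposed cells, with overlapping groups.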

How the data were processed

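H1 hESC-derived cortical interneurons were profiled by small RNA-seq in 4 libraries (NEBNext kit). CAP-miRseq was used by the authors, who deposited raw read counts for 2656 mature miRNAs without normalization. The submitters' processing notes name hg19, and the pipeline's version, the miRNA annotation release and the handling of reads that match several miRNAs are not given in the sources used here. Groups and replicate numbers came from the sample titles.

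The members and lists were chosen with earlier results of these data known. miRNAs were kept by filterByExpr (minimum count 10, minimum total 15), which left 863, and tested with edgeR 4.0.16 in R 4.3.3 (TMM, quasi-likelihood test, exposed over unexposed, no covariates, Benjamini-Hochberg adjustment). Standard errors were taken from the F statistic. The fit was first tested on simulated counts. Ratios were log2 of counts with 0.5 added, compared by a two-sided exact permutation test over libraries. Named miRNAs were the 10 members, 4 relatives and the 5 nearest in profile. As alternatives, DESeq2 1.42.0, limma-voom (limma 3.58.1), other scalings and filters, the replicate number as a block, leaving out each library, and ratios with a pseudocount of 5 or none were run. A count of 0 allows a level of up to 3 counts, or 0.121 to 0.248 CPM by library. Wilson intervals have a level of 95% and, like these floors, cover counting error only, since reads carry no molecular identifiers. Same-numbered libraries are not stated to share a culture day, and their replicate differences had a correlation of -0.186 across miRNAs, which are not independent. Positions and sequences came from RefSeq and GENCODE 29 by miRNA name.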

Additional observations from a re-analysis of the deposited data

How the results depend on the processing

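No alternative with all 4 libraries moved the count of members with an unadjusted P under 0.05 from 0, and the adjusted p of every member was at least 0.268 in all 14 alternatives. Without unexposed replicate 1 the count was 1 of 10 (miR-27b-5p), where 99 of 977 miRNAs tested (10.1%) passed, and leaving out each library in turn it ranged from 0 to 1. The lone library left in a group was then assumed to vary like the others. The median log2 fold change of the 10 members ranged from -0.22 to 0.026 with all libraries and from -0.24 to -0.029 with 1 left out. Library size only turned miR-24-3p to 0.095, miR-27b-3p to 0.039, miR-27a-5p to 0.096, miR-24-2-5p to 0.012 and the miR-27 sum to 0.045, while it raised the median of all tested miRNAs by 0.15. Upper quartile scaling turned miR-27a-3p to -0.064 and miR-3074-5p to -0.055 and lowered that median by 0.11. miR-27a-5p was 0.0079 with limma-voom, 0.0093 with the replicate block and 0.0080 when the numbers were crossed in the block, a choice made after seeing the data. With either block 0 members were called, and no call of a member changed. The cause of these turns was not tested.

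With 1 library left out in turn, the log2 fold change turned sign and ranged from -0.32 to 0.51 for miR-27a-3p, -0.30 to 0.11 for miR-27b-3p, -0.46 to 0.11 for miR-23b-5p and -0.32 to 0.30 for miR-27a-5p. The value that turned was -0.27 without exposed replicate 1 and -0.32 without unexposed replicate 1 for miR-27a-3p, 0.038 without exposed replicate 2 and 0.11 without unexposed replicate 2 for miR-27b-3p, and 0.047 and 0.30 without the same libraries for miR-27a-5p. miR-23b-5p was 0.11 without exposed replicate 1, miR-23c ranged from -0.20 to 0.067 and miR-3074-5p from -0.068 to 0.17, and the miR-27 sum was 0.049 and 0.12 without exposed or unexposed replicate 2. The log2 differences of the ratios that turned ranged from -0.093 to 0.00039 for miR-23a-3p to miR-23b-3p, -0.041 to 0.38 for miR-27a-3p to miR-27b-3p, -0.24 to 0.22 for the miR-23b arms, -0.15 to 0.31 for the miR-27a arms, -0.84 to 0.18 for miR-23a-3p to miR-27a-3p, -0.42 to 0.20 for miR-23b-3p to miR-27b-3p and -0.11 to 0.20 for miR-24-3p to the other guides. A pseudocount of 5 turned the miR-23b arms to 0.0024. The arms of miR-27b (0.15 to 0.67) and the miR-24 passenger strands (-0.48 to -0.41) kept their sign, as any ratio whose groups do not overlap must. Depth limits the miR-24 passenger strands and the rare relatives most.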

Other observations

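miRNAs that mark other cell types were looked at beside the clusters, since miR-23/27/24 are also abundant in vessels and connective tissue. The endothelial markers miR-126-3p and miR-126-5p were both counted in every library and together took 0.116% and 0.0908% of the counts in exposed and 0.0756% and 0.0858% in unexposed cells, with each exposed library above each unexposed one. The 5 mesenchymal and smooth muscle markers summed to 80.2 to 111 CPM, the 3 oligodendrocyte markers to 75.7 to 116 CPM and the 5 epithelial markers to 81.1 to 163 CPM, with overlapping groups in each list; of the epithelial markers 4 were counted in every library and of the other lists all. The 6 pluripotent stem cell markers summed to 2.42 and 2.92 CPM in exposed and 3.48 and 3.89 CPM in unexposed cells, with miR-367-3p at 0 counts in every library, and the 4 blood markers summed to 0.155 to 0.740 CPM, with miR-223-3p at 0 counts. Each exposed library was below each unexposed one for the pluripotent markers, but miR-302a-3p, miR-302c-3p, miR-302d-3p and miR-367-3p had under 3 counts in at least 1 library. Every blood marker had under 3 counts in at least 1 library, and 1 of the 4 was counted in every library. Among all tested miRNAs, the groups did not overlap for 14.6% with exposed lower and for 18.8% with exposed higher. The part of these cell types in the levels of miR-23/27/24 was not tested.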
